A study of Mus musculus with 18 samples.

Results

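CpG-rich one-way coding promoters are the open regions that lay within 1000 bp of the start of a protein-coding transcript, had no coding start on the opposite strand within that distance, and had a GC share of at least 50% and an observed-over-expected CpG ratio of at least 0.6 in the 500 bp on each side of the midpoint. There were 10061 such regions among the 68533 open regions on chromosomes 1 to 19 (14.7%) and the 69499 regions in all (14.5%). They made up 56.2% of the 17905 regions near coding starts and lay at the starts of 6989 named genes. The rest of the regions near starts were 6118 CpG-poor one-way promoters and 1726 two-way promoters, with coding starts on both strands, and 50628 regions lay away from coding starts.

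The regions come from fast-ATAC-Seq, a method that cuts and tags accessible DNA with the Tn5 transposase, performed on 50000 isolated liver macrophages (LMs) per reaction from male C57BL/6J mice. All mice were injected as adults with an adeno-associated virus and then fed a high-fat, high-sucrose diet (HFHSD) for 4 weeks. The 3 genotypes were control, *Reverb*-hDKO, in which *Rev-erb*α and *Rev-erb*β were deleted, and *Reverb/Scap*-hTKO, in which *Scap* was deleted as well, and each had 3 libraries at zeitgeber time (ZT) 10 and 3 at ZT22, or 18 in all. Deletion was made in floxed mice by Cre under the hepatocyte-specific TBG promoter, and control mice received GFP under the same promoter, so that the LMs of each group were not the cells targeted by Cre. Which floxed alleles the control mice carried was not stated for these libraries. The list analysed here joins the regions of all groups and gives a chromosome, a start, and an end but no value for any library, so genotypes, times, and replicates could not be compared and the depth is unknown. Regions were called on merged biological replicates, so a region need not be open in each library.

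CpG islands are stretches of DNA that kept their CpG dinucleotides because they are mostly free of DNA methylation in the germ line, and most promoters of broadly expressed genes lie in one. Such promoters usually lack a TATA box, start transcription at many neighboring bases, and bind factors such as Sp1, NF-Y, NRF1, ETS proteins, and YY1. In cells in which a gene with a CpG island is silent, the island is often held by Polycomb complexes, as is known for transcription factors of other lineages. Many genes of the core clock and of cholesterol synthesis, pathways that the deletions touch in hepatocytes, also have promoters of this kind.

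The sequences below show what these promoters look like, and each is the longest stretch of an open region outside annotated exons, in mm9, read 5′ to 3′ along the gene. The first set holds the open regions of period, cryptochrome, and REV-ERB genes that carry a clock element. Capitals mark the E-box CACGTG, to which CLOCK and BMAL1 bind, or the D-box TTANGTAA, to which DBP, TEF, HLF, and NFIL3 bind. *Cry1* and the *Per* genes code for the repressors of the clock, and *Nr1d2* for REV-ERBβ.
Cry1, chr10:84647804-84647984, minus strand: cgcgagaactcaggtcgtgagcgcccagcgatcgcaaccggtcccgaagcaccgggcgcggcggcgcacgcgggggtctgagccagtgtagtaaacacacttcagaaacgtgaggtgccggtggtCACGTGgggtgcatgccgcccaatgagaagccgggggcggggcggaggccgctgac
Per1, chr11:68908365-68908550, plus strand: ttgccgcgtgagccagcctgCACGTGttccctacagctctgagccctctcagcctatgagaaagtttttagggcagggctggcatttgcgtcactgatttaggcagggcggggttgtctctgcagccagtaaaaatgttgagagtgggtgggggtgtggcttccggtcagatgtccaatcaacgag
Nr1d2, chr14:19071044-19071251, minus strand: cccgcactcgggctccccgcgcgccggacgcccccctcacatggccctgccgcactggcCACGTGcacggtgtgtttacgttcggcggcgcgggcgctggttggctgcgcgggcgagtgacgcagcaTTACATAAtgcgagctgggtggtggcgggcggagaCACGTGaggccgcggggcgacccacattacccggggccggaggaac
Per2, chr1:93355926-93356161, minus strand: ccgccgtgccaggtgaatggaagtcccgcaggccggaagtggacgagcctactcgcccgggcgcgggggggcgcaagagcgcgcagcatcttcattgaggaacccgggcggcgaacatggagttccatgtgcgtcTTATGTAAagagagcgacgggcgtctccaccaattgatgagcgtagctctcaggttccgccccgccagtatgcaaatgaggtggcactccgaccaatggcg
Per3, chr4:150418894-150419045, minus strand: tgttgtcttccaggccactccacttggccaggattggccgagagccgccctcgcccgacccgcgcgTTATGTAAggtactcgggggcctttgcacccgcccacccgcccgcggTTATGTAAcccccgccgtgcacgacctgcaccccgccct
The *Nr1d2* region lay 494 bp after the start, in the first part of the gene, and held 2 E-boxes and 1 D-box. *Per3* held 2 D-boxes, in a region with its midpoint 195 bp before the start, and the other three regions held 1 element each.

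The second set is a region at a gene of the sterol regulatory element-binding protein (SREBP) pathway. Capitals mark the E-box in *Insig1*, which codes for a protein that retains SCAP in the endoplasmic reticulum.
Insig1, chr5:28397707-28397907, plus strand: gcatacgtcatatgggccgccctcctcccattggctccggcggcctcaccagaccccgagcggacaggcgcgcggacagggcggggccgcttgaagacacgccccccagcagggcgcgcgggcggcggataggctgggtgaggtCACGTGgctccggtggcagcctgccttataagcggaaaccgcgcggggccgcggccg
The third set gives 1 example of each motif common at these promoters, taken from the lists of proteasome, respiratory chain, spliceosome, and aminoacyl-tRNA synthetase genes as the region with the motif nearest to its midpoint. In order, capitals mark the GC box GGGCGG, the CCAAT box CCAAT, the NRF1 site GCGCANGCG, the ETS site CCGGAAGT, the YY1 site AAGATGGCG, the cAMP response element TGACGTCA, and the ZBTB33 site TCTCGCGA. All motifs were searched on both strands, so that a palindrome can give overlapping matches, as it did in *Cox6a1* and *Psmb2*.
Psmc4, chr7:28835121-28835291, minus strand: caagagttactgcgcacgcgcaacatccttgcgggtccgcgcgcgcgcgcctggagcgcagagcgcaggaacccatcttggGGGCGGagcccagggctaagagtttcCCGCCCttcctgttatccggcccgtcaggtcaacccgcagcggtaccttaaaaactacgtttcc
Psmb3, chr11:97564566-97564712, plus strand: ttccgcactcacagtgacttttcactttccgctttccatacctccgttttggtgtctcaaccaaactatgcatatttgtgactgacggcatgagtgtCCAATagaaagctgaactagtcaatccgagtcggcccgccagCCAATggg
Cox6a1, chr5:115798991-115799175, minus strand: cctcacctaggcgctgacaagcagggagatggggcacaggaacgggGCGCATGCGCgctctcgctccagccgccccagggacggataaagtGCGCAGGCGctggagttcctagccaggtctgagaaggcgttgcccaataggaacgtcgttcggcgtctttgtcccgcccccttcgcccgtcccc
Mars, chr10:126748843-126748913, minus strand: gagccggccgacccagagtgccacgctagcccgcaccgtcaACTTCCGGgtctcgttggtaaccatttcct
Psmd7, chr8:110112383-110112517, minus strand: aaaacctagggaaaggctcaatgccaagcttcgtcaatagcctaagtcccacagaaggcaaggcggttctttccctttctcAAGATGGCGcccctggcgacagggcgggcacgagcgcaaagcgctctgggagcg
Snrpg, chr6:86321392-86321533, plus strand: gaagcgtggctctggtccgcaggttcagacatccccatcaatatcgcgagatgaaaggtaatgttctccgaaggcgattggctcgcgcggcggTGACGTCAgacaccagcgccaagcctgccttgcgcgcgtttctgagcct
Psmb2, chr4:126354756-126354873, plus strand: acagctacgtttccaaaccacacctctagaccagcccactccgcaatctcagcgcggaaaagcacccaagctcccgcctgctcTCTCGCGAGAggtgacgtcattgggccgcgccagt
*Psmc4* and *Psmd7* code for subunits of the regulatory particle of the proteasome and *Psmb2* and *Psmb3* for subunits of its core. *Cox6a1* codes for a subunit of cytochrome c oxidase, *Mars* for methionyl-tRNA synthetase, and *Snrpg* for an Sm protein of the spliceosome.

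The median GC share of the CpG-rich one-way regions was 61.4% and their median CpG ratio 0.790, against 52.7% and 0.399 in CpG-poor and 59.7% and 0.771 in two-way promoters. These values follow from the limits. Of the two-way promoters, 1422 (82.4%) also passed both composition limits. *Rbbp5* and *Tspan31* lay just inside the GC limit (50.05% each), and *Eprs* and *Smek2* just outside it (49.95% each). At the CpG limit, *Ebpl* had a ratio of 0.600005, and *Stxbp2* and *St14* had 0.599965 and 0.599933. Counted from the start, with positions before it negative, the midpoint at *U2af2* lay at -999 bp, and those at *Fut8* and *Map3k6* at -1002 bp and 1003 bp. In all, 9.95% of the regions had a CpG ratio less than 0.05 above the limit.

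The CpG-rich one-way regions were wider than the other open regions, apart from those at two-way promoters. The commonest width in the list was 151 bp, which is also the narrowest in this class, and 7862 of the 10061 regions were wider than that (78.1%; 95% Wilson interval, 77.3% to 78.9%). The share was 60.6% at CpG-poor promoters, a difference of 17.6 percentage points (95% Newcombe interval, 16.1 to 19.1) with the same sign on 19 of 19 chromosomes. Away from coding starts it was 46.6%, a difference of 31.6 points (30.6 to 32.5; 19 of 19 chromosomes). At two-way promoters it was 81.6%, a difference of -3.43 points (-5.37 to -1.37; 13 of 19 chromosomes), and under 3 of the 8 alternatives tried this interval included 0. These intervals cover counting error only and treat regions as independent, which neighboring regions are not.

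Median widths were 196 bp in CpG-rich one-way, 175 bp in CpG-poor, 199 bp in two-way promoters, and 151 bp elsewhere. The mean in the CpG-rich one-way class was 205.9 ± 54.4 bp (SD over regions, n = 10061). Regions of more than double the commonest width were rare (524, or 5.21%), with 3.38% at CpG-poor promoters, 4.29% at two-way promoters, and 2.12% away from starts. The widest was 744 bp, at the first exon of *Rab11fip2* (chr19:60019133-60019876, minus strand, midpoint in the 5′ UTR), which codes for an effector of the recycling endosome protein RAB11. It was followed by *Atp8b1*, a phospholipid flippase (607 bp), *Mrpl4*, a mitochondrial ribosomal protein (590 bp, chr9:20807191-20807780), *Icosl*, the ligand of the T cell costimulator ICOS (578 bp, chr10:77531975-77532552), and *Khdrbs3*, an RNA-binding protein (572 bp, chr15:68758460-68759031).

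**Figure D1:**
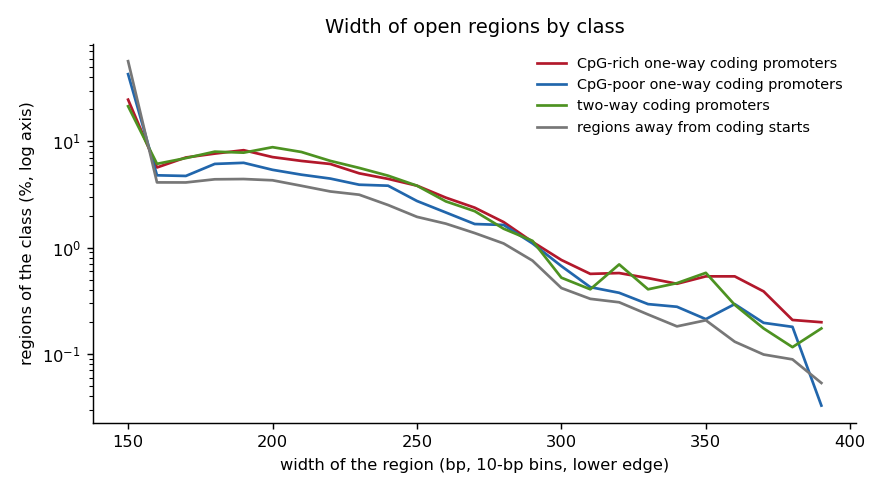
Width of the open regions in 10-bp bins from 150 bp, as the share of each class on a log axis; the first bin holds the regions at the commonest width. The line of the CpG-rich one-way promoters starts at 24.6% and runs above that of the CpG-poor promoters from 160 bp to 290 bp.

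Most of the regions sat close to the start, and width followed position. Of the 10061 midpoints, 6767 (67.3%) lay within 200 bp of the nearest coding start, 1293 (12.9%) farther before it, and 2001 (19.9%) farther after it, and the middle one lay 28 bp before the start. The fullest 50 bp were those just before the start, with 1657 midpoints. Within 200 bp of the start 88.2% of the regions were wider than 151 bp (median, 203 bp), against 72.1% of those farther before it (median, 184 bp) and 48.1% of those farther after it (median, 151 bp). The first and the last of these shares differed by 40.1 points (37.7 to 42.4), and the regions on the far sides of the start differed by 24.0 points (20.6 to 27.2), each on 19 of 19 chromosomes. The regions after the start formed a low shoulder in the profile, with 177 midpoints at 150 to 200 bp, 238 at 350 to 400 bp, and 136 at 500 to 550 bp.

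CpG-poor promoters had 52.0% of their midpoints within 200 bp, and 73.4% of these were wider than 151 bp. The share of midpoints before the start was 59.0% in CpG-rich and 57.2% in CpG-poor one-way promoters. This difference (1.82 points; 0.255 to 3.39; 12 of 19 chromosomes) changed sign to -2.01 points when only the first annotated start of each gene was used, so no direction is given. By annotation, 42.4% of the midpoints were between genes, 24.0% in a 5′ UTR exon, 23.7% in an intron, and 6.41% in a coding exon. Of the regions between genes 89.8% were wider than 151 bp, as were 80.8% of those in 5′ UTR exons, 62.2% of those in introns, and 52.1% of those in coding exons.

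**Figure D2:**
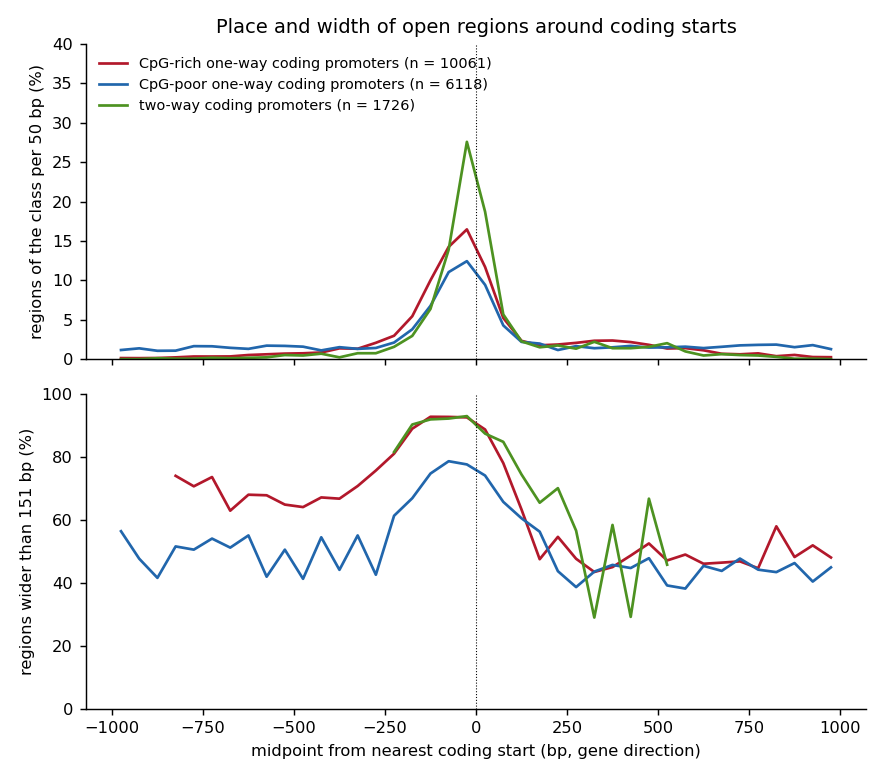
Midpoints of open regions around the nearest coding start in 50-bp bins, as the share of each class (top) and the share of regions wider than 151 bp in each bin with at least 20 regions (bottom); negative distances lie before the start. In CpG-rich one-way promoters 16.5% of the midpoints fell in the last 50 bp before the start, and the share of wide regions fell from 92.5% there to 47.5% at 150 to 200 bp after it.

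Many genes had more than 1 open region of the class, in some cases at alternative starts. By nearest gene, 4523 genes had 1 CpG-rich one-way region, 1984 had 2, 394 had 3, 80 had 4, and 13 had 5 to 7. *Sp3*, which codes for a factor that binds the GC box, had the most with 7 regions over 2559 bp (chr2:72816580-72819138), and *Gnas*, the gene for the stimulatory G protein subunit with several alternative promoters, had 6. *Elf2*, an ETS factor, and *Prkag2*, a subunit of the AMP-activated kinase, were among those with 5, spread over 64277 bp and 193150 bp, and so was *Nr3c1*, which codes for the glucocorticoid receptor, over 1836 bp. In genes with 2 regions of unequal distance from the start, the nearer one was wider in 1299 and the farther one in 587, and 95 were equal. The nearer region had a median width of 203 bp and the farther one of 161 bp. The farther region lay after the start in 1334 of the 1984 genes, where its median width was 151 bp, and before it in 650, where its median width was 177 bp.

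Neighboring midpoints of the same gene that were at most 1000 bp apart (2901 pairs) had a median spacing of 439 bp, and 45.3% of these pairs were 300 to 500 bp apart. The share was 35.2% of 1045 pairs at CpG-poor and 47.9% of 257 pairs at two-way promoters. No pair was closer than 150 bp, since the regions do not overlap. Beyond the promoter itself the neighborhood was emptier than at CpG-poor promoters. Another open region lay between 1 and 10 kb from the midpoint of 60.6% of the CpG-rich and 72.2% of the CpG-poor one-way promoters, a difference of -11.6 points (-13.0 to -10.1; 18 of 19 chromosomes). Up to 50 kb the difference from CpG-poor promoters was -1.75 points. At two-way promoters the share for 1 to 10 kb was lower still, at 57.4%. The CpG-rich share exceeded it by 3.28 points (0.777 to 5.81; 12 of 19 chromosomes).

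Genes were then counted from their starts, whether or not a region lay there. Of 8425 genes with a CpG-rich one-way start, 7001 had an open region of any class within 1000 bp of it (83.1%; 82.3% to 83.9%) and 1424 had none in the list and are called not open here. Of 10526 genes with only CpG-poor one-way starts 2806 did (26.7%), a difference of 56.4 points (55.3 to 57.6; 19 of 19 chromosomes), and of 2459 genes with a two-way start 2259 did (91.9%). The share ranged from 76.7% on chromosome 14 to 91.5% on chromosome 16. At least 2 regions lay at the start of 45.4% of the open CpG-rich genes and 31.8% of the open CpG-poor genes, a difference of 13.6 points (11.5 to 15.6; 19 of 19 chromosomes). The share was higher still in open two-way genes, from which the CpG-rich genes differed by -3.62 points (-5.99 to -1.26; 12 of 19 chromosomes). Among the CpG-rich genes, the open share rose from 72.5% of the 843 genes with the lowest CpG ratios to 90.4% of the 843 genes with the highest. The 1424 genes that were not open had a median CpG ratio of 0.734, against 0.789 in open genes, and a median GC share of 63.2%, against 61.6%. Their nearest open region lay at a median of 16522.5 bp from the start, and in 323 of them (22.7%) it was more than 50 kb away.

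Among 17 gene lists, the CpG-rich starts of housekeeping and lysosomal genes were open throughout. All 25 such starts of proteasome subunits had an open region (95% interval from 86.7%), as had all 19 of aminoacyl-tRNA synthetases (from 83.2%), all 39 of respiratory chain subunits (from 91.0%), all 30 of spliceosome proteins (from 88.6%), and all 17 of lysosomal genes (from 81.6%). These are to be read against the 83.1% over all 8425 genes, which the interval of the lysosomal genes includes. The region counted at a start can be of any class, and in 236 of the 251 open genes of the lists the widest one was itself a CpG-rich one-way region. The widest region per gene had a median of 214 bp over all open CpG-rich genes and of 206 to 217 bp in these 5 lists. In the proteasome it ranged from 170 bp at *Psma5* and *Psma6* to 275 bp at *Adrm1*, a ubiquitin receptor. Among synthetases it ranged from 174 bp at *Nars* to 308 bp at *Iars2*, in the respiratory chain from 151 bp at *Ndufs4* and *Ndufc2* to 328 bp at *Ndufb6*, and among spliceosome genes from 159 bp at *Snrnp70* to 408 bp at *Sf3b4*. Of the lysosomal genes *Asah1*, acid ceramidase, had the narrowest (155 bp) and *Tcfeb*, the master regulator of lysosomal genes, the widest (384 bp). Open starts were not particular to the CpG-rich class in these 5 lists. All CpG-poor starts of proteasome (1), synthetase (5), respiratory chain (5), and spliceosome genes (1) were open, as were 10 of 11 lysosomal ones. All two-way starts were open, with 6, 11, 23, and 17 in the same order and 6 in lysosomal genes. Over all genes the shares were 26.7% for CpG-poor and 91.9% for two-way starts.

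Core clock genes had 20 CpG-rich one-way starts, all of them open (from 83.9%), with a median widest region of 206 bp. Over all CpG-rich genes the open share was 83.1%, just below that interval, and the median widest region 214 bp. The 4 core clock genes with CpG-poor starts were all open as well, against 26.7% of all CpG-poor genes. In the activating arm *Npas2* had 1 region of 418 bp, the widest of the list, which was itself CpG-poor, *Clock* had 3 regions of up to 239 bp, and *Arntl*, which codes for BMAL1, had 1 region of 197 bp with its midpoint 113 bp before the start (chr7:120350768-120350964). In the repressing arm *Per2* had 1 region of 236 bp with its midpoint 136 bp before the start (chr1:93355926-93356161), *Cry1* 2 regions of up to 207 bp, *Per1* 2 of up to 186 bp, *Cry2* 1 of 162 bp, and *Per3* 2 of up to 152 bp, the narrowest of the list. Among nuclear receptor genes *Nr1d2* had 2 regions, of 195 bp before the start and 208 bp in an intron, and *Rora* and *Rorb*, which code for activators that share the REV-ERB element, had widest regions of 251 bp and 159 bp, the latter CpG-poor. *Nr1d1*, the gene for REV-ERBα, had a CpG-poor start with 1 open region and is thus outside this class. Of the genes for D-box proteins *Nfil3*, the repressor, had 4 regions of up to 225 bp and *Tef* 3 of up to 255 bp, and the activators *Hlf* and *Dbp* had 1 region each, of 205 bp and 191 bp. The widest regions at *Bhlhe41*, *Fbxl21*, *Csnk1d*, and *Csnk1e*, which code for a repressor, a ubiquitin ligase subunit, and 2 kinases of the clock, lay between 155 and 236 bp.

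Genes of the SREBP pathway and of sterol and fatty acid synthesis had 28 CpG-rich one-way starts, all open (from 87.9%), with a median widest region of 210 bp. Over all CpG-rich genes these values were 83.1% and 214 bp. The 8 genes of this list with CpG-poor starts and the 4 with two-way starts were all open as well. Over all genes of those classes the shares were 26.7% and 91.9%. Of the regulators, *Scap* had 1 region of 300 bp and *Insig1* a CpG-poor one of 308 bp beside the CpG-rich one shown above, followed by *Insig2* (274 bp) and *Mbtps1*, the site-1 protease (223 bp), and the SREBP genes *Srebf1* and *Srebf2* had 1 region each of 170 bp and 171 bp. Of the enzymes of cholesterol synthesis, *Pmvk* had the widest region of the list (319 bp), which was CpG-poor. In fatty acid synthesis *Fasn* had 2 regions of up to 291 bp, *Fads1* 3 of up to 300 bp, *Acly* 1 CpG-poor region of 168 bp, and *Gpam*, which starts triglyceride synthesis, 2 of up to 164 bp, the narrowest of the list. All 22 CpG-rich one-way starts of genes named in the study's text were open (from 85.1%, against 83.1% over all CpG-rich genes), a list that shares genes with those of the clock and the SREBP pathway. They included *Myc* (4 regions, up to 284 bp), *Jund* (1 region, 175 bp), *Met* (2 regions, up to 230 bp), *Bmpr1a* (3 regions, up to 181 bp), and *Vdr* (2 regions, up to 158 bp).

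Lists of other kinds of gene differed in how many CpG-rich starts were open. Of 25 immediate early and AP-1 genes 24 were open (96.0%; 80.5% to 99.3%), from *Fosb* (154 bp) to *Nr4a1* (379 bp), and only *Fosl1* was not. This interval includes the 83.1% of all CpG-rich genes. Of 65 developmental transcription factors of other lineages 10 were open (15.4%; 8.58% to 26.1%), and of 23 neuronal genes 4 (17.4%; 6.98% to 37.1%). Both intervals lie below the 83.1% of all CpG-rich genes. Where open, these starts mostly held narrow regions. *Pax9*, *Sox21*, *Neurog1*, *Neurog2*, and *Hoxa9* had nothing wider than 151 bp. The open neuronal genes were *Gad2*, *Kcnc1*, and *Unc13a*, with 151 bp each, and *Mtap2*, with 176 bp. Counting only wider regions, 7.69% of the developmental factors and 4.35% of the neuronal genes were open. Of the 55 developmental factors that were not open, 11 had an open region within 5 kb of the start and 11 had none within 50 kb.

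The markers of liver cell types served to check the label of the cells. All 7 macrophage markers with a CpG-rich start were open (from 64.6%), with *Zeb2* (158 bp) the narrowest, as were all 5 hepatocyte markers (from 56.6%), from *Foxa1* (189 bp) to *Onecut1* (289 bp). Of 11 endothelial markers 8 were open (43.4% to 90.3%). These 3 intervals include the 83.1% of all CpG-rich genes, so the counts do not set one of these 3 cell types apart. Among the endothelial markers, *Fli1*, *Flt4*, and *Egfl7* were not open. Of the stellate cell markers *Des*, *Pdgfra*, and *Lhx2* were open and *Nes*, *Wt1*, *Lrat*, *Hand2*, and *Reln* were not. Of the lymphocyte markers *Tcf7*, *Lef1*, and *Bcl11b* were open and *Tbx21*, *Gata3*, and *Eomes* were not. Of 7 bile duct markers 3 were open, *Sox4* and *Sox9* among them, and *Cdh1*, *Cldn7*, *Grhl2*, and *Cftr* were not. The open share was 37.5% of 8 stellate cell markers (13.7% to 69.4%) and 50% of 6 lymphocyte markers (18.8% to 81.2%). For the bile duct markers it was 42.9% (15.8% to 74.95%). The intervals of these 3 short lists lie below the 83.1% of all CpG-rich genes. Most markers of LMs have CpG-poor starts, and 19 of these 27 were open (51.5% to 84.1%), against 26.7% of all CpG-poor genes. Of these 19, *Emr1*, *Clec4f*, *Timd4*, *Ctss*, *Aif1*, *Itgam*, and *Cd14*, named after their values were seen, had nothing wider than 151 bp. The others were *Cd5l*, *Ptprc*, *C1qa*, *Laptm5*, *Nr1h3*, *C1qb*, *Tyrobp*, *Sfpi1*, *Cd68*, *C1qc*, *Mertk*, and *Tlr4*. Their widest regions ranged from 171 bp at *Cd5l* to 330 bp at *Tlr4*. *Cd163*, *Fcgr1*, *Csf1r*, *Marco*, *Ccr2*, *Cx3cr1*, *Fcer1g*, and *Lyz2*, named after their values were seen, had no open region at the start. Of 28 CpG-poor hepatocyte markers 26 were open, albumin included (77.4% to 98.0%), and of 18 endothelial ones 14 (54.8% to 91.0%). Among CpG-poor stellate cell, lymphocyte, and bile duct markers 7 of 16, 5 of 16, and 2 of 7 were open. The intervals of these last 3 lists include 26.7%. Starts typical of hepatocytes and of endothelial cells were thus open in the list beside those of macrophages, and some listed macrophage starts were not. Of the 26 open hepatocyte markers, only *Cyp3a11* had nothing wider than 151 bp. The part that DNA from other liver cells had in the open starts was not tested.

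**Figure D3:**
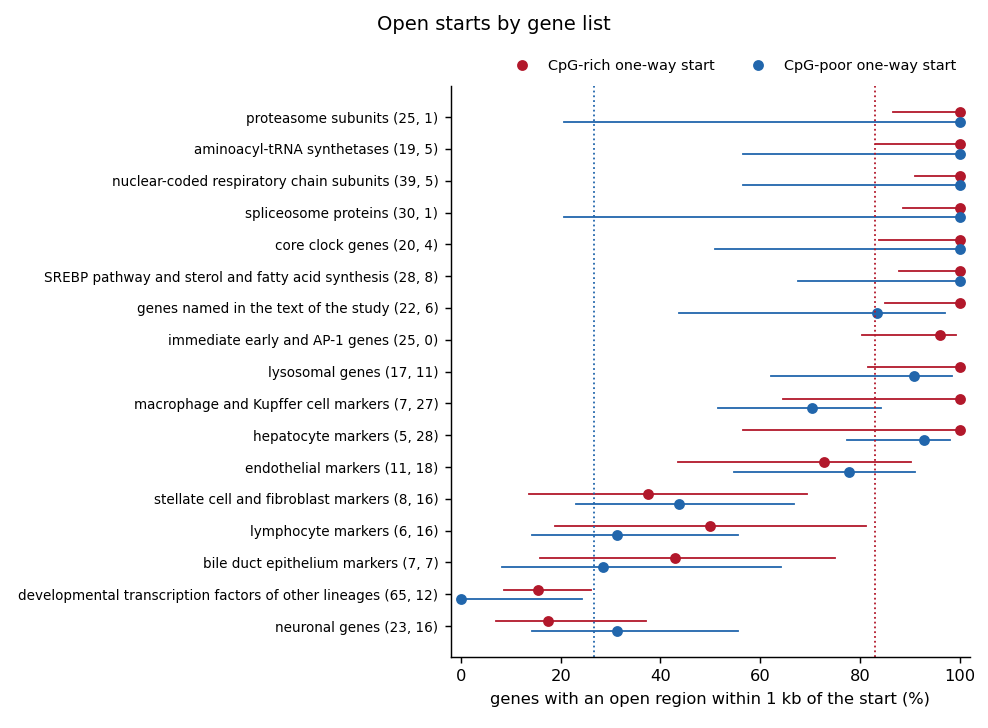
Share of genes with an open region within 1 kb of a CpG-rich (red) or CpG-poor (blue) one-way start in each list, with 95% Wilson intervals as bars, the numbers of genes in parentheses in that order, and the shares over all genes, 83.1% and 26.7%, as dotted lines. The CpG-rich starts of developmental factors and neuronal genes lie at 15.4% and 17.4%, and those of 10 lists at 100%.

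Families were also read from the letters at the beginning of gene symbols, a grouping made after the lists had been seen. Of 85 such groups with at least 10 CpG-rich genes, 17 were open in full, where the share over all CpG-rich genes was 83.1%. They included 33 *Ube* genes for ubiquitin conjugation, 21 *Med* genes for the Mediator complex, 20 *Mrpl* genes for the mitochondrial ribosome, 16 *Vps* genes for vesicle sorting, and 12 *Taf* genes for TATA-binding protein-associated factors. The large *Zfp* group of zinc finger genes was open in 157 of 172 (91.3%), the *Slc* transporters in 109 of 148 (73.6%), and the *Gpr* receptors in 14 of 23. The lowest shares among named families were those of *Adamts* proteases (4 of 13), *Wnt* ligands (5 of 15), and *Hoxa* genes (6 of 11).

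Motifs were counted in the 100 bp on each side of the midpoint, and as these are short words, a match describes the sequence and not binding. The GC box was the commonest. It lay in 61.4% of the CpG-rich one-way regions (60.5% to 62.4%), 25.5% of CpG-poor, and 52.4% of two-way promoters, and in 18.3% of all 68533 regions. GC-rich words are favored by the composition limits themselves, and in windows shifted by 500 bp before and after the midpoint the shares were 21.9% and 32.6%. The CCAAT box, whose letters are not GC-rich, was found in 27.3% of the CpG-rich and 27.3% of the CpG-poor one-way promoters (24.2% of all regions), and the sign of that difference depended on the window.

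The longer words of CpG island factors were less common than the GC box. The NRF1, ETS, YY1, cAMP response, and ZBTB33 words each hold a CpG, so the CpG limit itself favors them over CpG-poor promoters. The NRF1 site was found in 11.1% of the CpG-rich one-way regions, 2.34% of CpG-poor promoters, and 2.54% of all regions, a difference from CpG-poor of 8.77 points with the same sign on 19 of 19 chromosomes. In windows shifted by 500 bp before and after the midpoint its shares were 2.52% and 2.05%. The ETS site was found in 5.68%, 2.11%, and 1.70%, in the same order, the YY1 site in 2.18% of the CpG-rich and 0.670% of the CpG-poor one-way promoters, the cAMP response element in 3.01% and 1.55%, and the ZBTB33 site in 2.05% and 0.229%. Two-way promoters had higher shares of CCAAT boxes (32.9%), ETS sites (8.11%), and YY1 sites (3.01%) than the CpG-rich one-way regions, with intervals of the difference that excluded 0. The intervals included 0 for their shares of the NRF1 site (12.2%), the cAMP response element (3.36%), and the ZBTB33 site (2.49%).

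The AP-1 and PU.1 sites, known mainly from enhancers, were rarer here than at CpG-poor promoters. The AP-1 site TGANTCA was found in 2.41% of the CpG-rich one-way regions, against 7.06% of CpG-poor promoters and 9.10% of all regions, and the PU.1 site GAGGAAGT in 1.54%, against 4.01% and 4.18%. PU.1 is the lineage factor of macrophages. The TATA box TATAAA was found in 2.16%, against 4.61% and 5.28%. The REV-ERB element GTAGGTCA was found in 16 of the 10061 regions (0.159%), against 0.490% of CpG-poor promoters, the D-box in 0.706%, against 1.13%, the sterol response element TCACNCCAC in 0.745%, against 0.883%, and the E-box in 8.54%, against 6.33%. The GC limit itself disfavors AT-rich words such as TATAAA, and the E-box holds a CpG. Two-way promoters had similar shares of AP-1 (2.38%), PU.1 (2.09%), TATA (2.61%), and REV-ERB (0.174%) words. The intervals of these differences included 0.

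Within the class, motifs went with width and place. The GC box lay in 65.4% of the regions wider than 151 bp and 47.2% of those at 151 bp, the CCAAT box in 31.1% and 13.7%, the NRF1 site in 13.0% and 4.37%, and the ETS site in 6.94% and 1.14%. Regions with no GC box were wider than 151 bp in 70.1% of cases, those with 1 in 79.4%, those with 2 in 85.5%, and those with 3 or more in 88.1%. By GC content, the share of wide regions was 80.4% in the 2079 regions with the lowest GC share and 70.8% in the 1966 regions with the highest. By place, the GC box was found in 67.8% of the regions within 200 bp of the start. It was found in 52.6% of those farther before the start and 45.7% of those farther after it. The ETS site was found in 7.88%, 1.62%, and 0.850%, in the same order. The E-box was found in 9.09% of the regions within 200 bp, 10.4% of those farther before the start, and 5.45% of those farther after it. Width went with place too, and whether motifs go with width apart from place or composition was not tested.

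The last comparison set open CpG-rich genes against those that were not open, from 200 bp before to 100 bp after the start. The GC box was present at most starts of both kinds, 77.2% of 7001 open and 73.4% of 1424 not open (difference, 3.79 points; 1.35 to 6.34; 14 of 19 chromosomes). The ETS site, the NRF1 site, and the CCAAT box differed by more points. The ETS site was found at 9.03% of open starts and 1.54% of the others (difference, 7.48 points; 6.47 to 8.35; 19 of 19 chromosomes). The NRF1 site was found at 16.8% and 7.16% (9.66 points; 7.97 to 11.2; 18 of 19) and the CCAAT box at 36.1% and 26.1% (9.97 points; 7.37 to 12.5; 18 of 19). The rarer YY1 site was found at 4.26% and 0.632%, the cAMP response element at 4.13% and 1.19%, the ZBTB33 site at 2.71% and 0.421%, and the E-box at 11.3% and 8.43%, each with an interval of the difference above 0. The ZNF143 site was also commoner at open starts (difference, 0.114 to 0.682 points), and the TATA box was rarer there, at 4.73% against 6.04% (difference, -2.75 to -0.0729 points). The intervals of AP-1, PU.1, REV-ERB, D-box, sterol response, and CTCF sites included 0.

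Because open genes had higher CpG ratios, the comparison was repeated for genes with a ratio of at least 0.75, a choice made after seeing the data. In these 4364 open and 643 other genes the median ratios were 0.856 and 0.831. The ETS site was found at 8.39% of open and 1.24% of other starts (7.14 points; 5.72 to 8.20) and the NRF1 site at 19.1% and 9.02% (10.1 points; 7.35 to 12.4). The part of the remaining difference in composition was not tested.

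**Figure D4:**
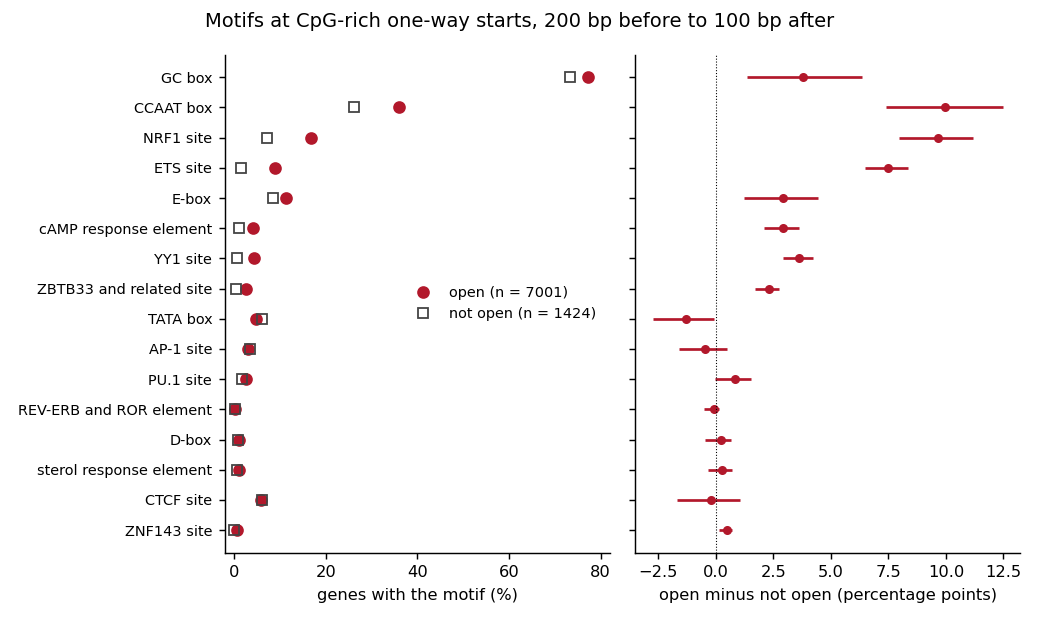
Share of CpG-rich one-way genes with each motif from 200 bp before to 100 bp after the start (left; open genes as filled circles, genes that were not open as open squares) and the difference with its 95% Newcombe interval (right). The CCAAT box, NRF1, and ETS differences of 9.97, 9.66, and 7.48 points lie farthest from 0.

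The motifs also had their own places around the open starts. Over the 500 bp on each side, the fullest 50 bp were those just before the start for the GC box (4014 of 28590 sites), the NRF1 site (508 of 2474), the ETS site (264 of 945), the cAMP response element (126 of 395), the ZBTB33 site (101 of 425), and the E-box (232 of 1994). For the CCAAT box they lay 50 to 100 bp before the start (1191 of 8534), and 73.7% of all CCAAT boxes were before it. The YY1 site lay on the other side, with 176 of its 486 sites in the first 50 bp after the start and 50.2% in the first 100 bp. The TATA box, D-box, and AP-1 site were fullest at 350 bp or more before the start. The TATA box also had 99 sites in the last 50 bp before it, against 37 in the 50 bp before those and 47 in the first 50 bp after the start.

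**Figure D5:**
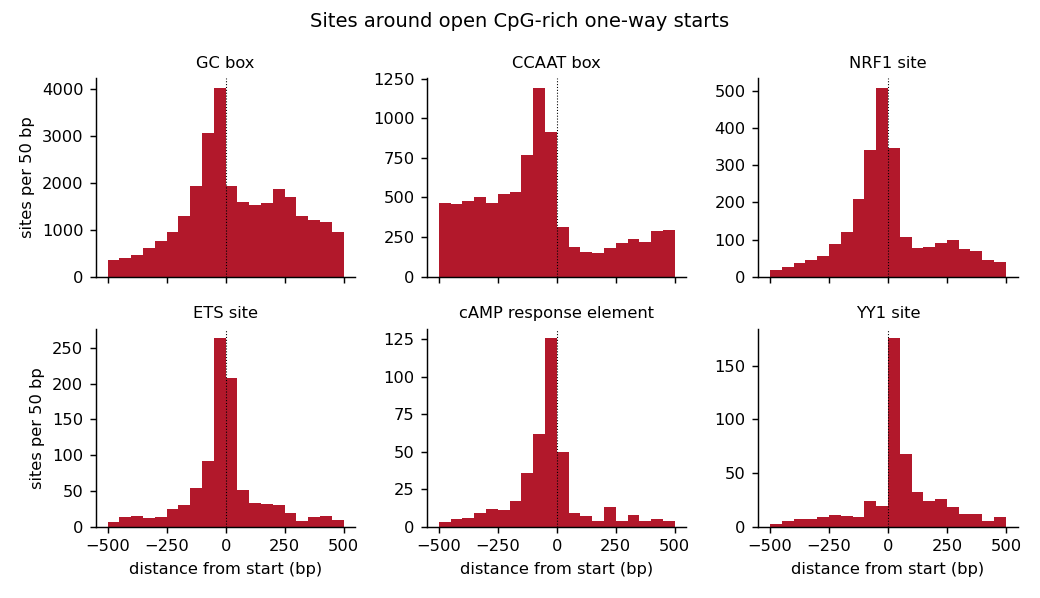
Sites of 6 motifs per 50 bp around the starts of the 7001 open CpG-rich one-way genes, with the start at 0 and negative distances before it; each panel has its own vertical axis, a count of sites from 0. Bars are highest just before the start, 50 to 100 bp before it for the CCAAT box (1191 sites), and just after it for the YY1 site (176 sites).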

How the data were processed

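The submitters' processing notes name mm9, Bowtie, and HOMER. The authors applied the ATAC-Seq pipeline of the Kundaje laboratory, aligned trimmed reads, merged biological replicates, and called open regions, and the deposited list of all 18 libraries holds only positions, which are here counted from 1. Which caller within the pipeline and which threshold were used is not given in the sources used here. What sets the commonest width of 151 bp was not tested, so widths are compared as listed.

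Regions were set against the NCBIM37 assembly and 44018 starts of protein-coding transcripts of 21410 coding genes (GENCODE, version M1) on chromosomes 1 to 19. The CpG ratio is the number of CpGs times the window length over the product of C and G counts. A gene with any two-way start was two-way, and otherwise CpG-rich if any start was. Of 595 listed symbols 592 were found, 5 by an older name. The regions, lists, and motifs were chosen with earlier results of these data known. Named genes were the extremes of each list, genes not open where at most 5, and clock, SREBP, and study genes. Shares have 95% Wilson and differences 95% Newcombe intervals, without p-values. Other limits, windows, starts, and subsets were tried as alternatives. The steps were tested on simulated data. Python 3.11.15, NumPy 2.4.6, pandas 2.3.3, and matplotlib 3.10.9 were used. Some listed genes and sequences are not reported here.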

Additional observations from a re-analysis of the deposited data

How the results depend on the processing

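No paired analysis was possible because no value is given for any library, so the shared replicate numbers could not be used and no replicate could be left out. Of 186 values recomputed under other limits, windows, starts, and subsets, 161 held, the differences keeping their direction and their side of 0 and the counts staying within 1.5 times. The number of CpG-rich one-way regions fell to 6243 with a CpG limit of 0.75, where 152 listed genes were open. The width difference from two-way promoters had an interval that included 0 with that limit (-1.92 points), with composition over 250 bp (-1.47), and within 200 bp of a start (-1.35). The share of midpoints before the start, against CpG-poor promoters, reversed with gene starts only (-2.01) and had an interval including 0 within 500 bp (0.593) and with a GC limit of 0.55 (0.240). Against CpG-poor promoters, the CCAAT difference turned positive in 50 bp on each side (2.03), in the region itself (0.937), and among wider regions (0.211), and fell below 0 at a CpG limit of 0.75 (-2.67). For the D-box the interval included 0 in 50 bp on each side (-0.165), with gene starts (-0.245), and at the limit of 0.75 (-0.105), and for the ZNF143 site it came to exclude 0 among wider regions (-0.350), with gene starts (-0.247), and at 0.75 (-0.251). At open against other starts, with settings chosen after seeing the data, genes with a ratio of at least 0.75 gave intervals including 0 for ZNF143 (0.458) and the TATA box (-0.901) and opposite signs for REV-ERB (0.206) and CTCF (0.0973), and a window of 100 bp before to 50 bp after gave 0.230 for ZNF143, an interval above 0 for PU.1 (0.756), and an opposite sign for the D-box (-0.0643). The cause of these changes was not tested. Depth is unknown, so a start without a region may hold one below the threshold.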
